A study of Mus musculus with 20 samples.

Results

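The 10 Kupffer cell marker genes Clec4f, Cd5l, Vsig4, Marco, Emr1, Csf1r, Timd4, Cd68, Cd163 and Spic were followed in bulk RNA-seq of mouse liver. Members were the rows of the count and TPM tables that carry these symbols, 10 of 25444 loci, and Emr1 was listed there under its current symbol, Adgre1. All 10 passed the filter on low counts that left 13704 genes for testing. The series held 20 livers from mice aged 20 weeks, 5 each of C57BL/6N (B6) females, B6 males, C3H/HeN (C3) females and C3 males. No agent or transgene was applied, both strains are inbred, the mice were caged singly, and RNA came from the left lateral lobe. Since females and males lived in different rooms, an effect of sex and one of room cannot be told apart.

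Kupffer cells are the resident macrophages of the liver. They sit in the sinusoids, where they take bacteria, ageing red cells and particles out of the portal blood. Their survival rests on signalling through Csf1r, and their identity is set by signals from neighbouring endothelial and stellate cells that act together with the transcription factors Spi1 and Nr1h3. In whole liver, a lower marker level from fewer Kupffer cells cannot be told apart from less of that RNA in each cell.

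The stretches just upstream of the start sites are printed first, since the members are compared below as genes that moved together. RefSeq promoter sequences on GRCm38.p6 were found for 8 of the 10 members, all but Adgre1 and Csf1r. The PU box, GAGGAA, is the core bound by the Ets factors Spi1 and Spic. It was present on either strand of the 250 bases upstream of the start in 4 of the 8 members, Cd5l, Vsig4, Marco and Cd68, and in 23.3% of 32851 mouse promoters of the same length. Vsig4 held 2 copies. The longer form GAGGAAGT, which contains GAGGAA, was in none of the 8 and in 2.44% of promoters. AGGTCA, a core bound by nuclear receptors, was in Clec4f and Timd4 and in 14.0% of promoters. CATGTG, an E-box, was in Timd4 and in 12.3% of promoters, and TGACTCA, an AP-1 site, was in Cd68 and in 4.46%. The interferon response element core (2.98% of promoters), the E-box CACGTG (6.02%), the C/EBP site TTGCGCAA (0.164%) and the TATA box TATAAA (12.4%) were in 0 of the 8, all searched on both strands. The 4 windows with a PU box and that of Clec4f, the member most particular to Kupffer cells, read 5′ to 3′ on the gene's strand, with the PU box, or its reverse complement in Cd5l, in capitals, and lie at chrX:96293439-96293688 (minus strand), chr3:87357631-87357880 (plus), chr1:120505025-120505274 (minus), chr11:69666171-69666420 (minus) and chr6:83656117-83656366 (minus).
Vsig4: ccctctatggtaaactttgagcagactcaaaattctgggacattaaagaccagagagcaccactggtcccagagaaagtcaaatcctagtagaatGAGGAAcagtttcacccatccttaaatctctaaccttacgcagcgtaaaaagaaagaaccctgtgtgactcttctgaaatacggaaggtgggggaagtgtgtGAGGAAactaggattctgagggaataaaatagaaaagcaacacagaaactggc
Cd5l: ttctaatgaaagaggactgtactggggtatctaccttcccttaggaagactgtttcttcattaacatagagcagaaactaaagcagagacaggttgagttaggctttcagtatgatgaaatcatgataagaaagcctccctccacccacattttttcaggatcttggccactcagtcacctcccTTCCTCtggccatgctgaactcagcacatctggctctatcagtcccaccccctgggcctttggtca
Marco: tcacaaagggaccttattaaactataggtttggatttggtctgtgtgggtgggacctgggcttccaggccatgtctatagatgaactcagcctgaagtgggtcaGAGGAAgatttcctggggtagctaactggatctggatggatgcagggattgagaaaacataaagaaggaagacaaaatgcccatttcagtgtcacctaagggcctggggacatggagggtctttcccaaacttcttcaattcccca
Cd68: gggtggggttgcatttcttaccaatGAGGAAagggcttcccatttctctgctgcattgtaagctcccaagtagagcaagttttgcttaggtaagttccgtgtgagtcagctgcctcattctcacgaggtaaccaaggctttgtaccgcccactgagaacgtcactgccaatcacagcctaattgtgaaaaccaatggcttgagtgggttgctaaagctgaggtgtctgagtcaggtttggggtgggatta
Clec4f: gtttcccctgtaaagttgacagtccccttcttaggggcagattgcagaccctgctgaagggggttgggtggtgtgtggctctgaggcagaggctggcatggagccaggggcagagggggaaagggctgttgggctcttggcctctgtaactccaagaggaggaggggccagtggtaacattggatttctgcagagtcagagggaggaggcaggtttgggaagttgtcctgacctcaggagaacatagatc
A match is a description of letters and not of a bound site.

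All 10 genes were detected in every liver, with raw counts from 40 for Spic to 8583 for Clec4f. The library totals ran from 27370921 to 46835745 assigned reads, and the members together took 0.0209% to 0.0645% of them. A count of 3 reads, used as the limit of detection, corresponded to 0.0641 to 0.11 CPM (counts scaled to library size, here by TMM), far under every member. These limits cover counting error only. By group, the summed level of the 10 genes had a median of 561.4 CPM in B6 females (477.5 to 595.3), 376.8 in B6 males (313.5 to 453.5), 347.6 in C3 females (309.7 to 455.8) and 289.2 CPM in C3 males (223.1 to 321.6). B6 females thus lay wholly above the other 3 groups.

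Levels of different genes were compared by TPM, a unit that divides by gene length and scales each library to the same total. Cd5l, a secreted scavenger-receptor protein of tissue macrophages, was the most abundant member, at a mean of 111.7 TPM over the 20 livers (range 63.0 to 174). It exceeded Clec4f, a galactose-binding C-type lectin of mouse Kupffer cells with a mean of 91.2 TPM, in 18 of 20 livers. Vsig4, the complement receptor that captures opsonised bacteria, came next at 46.6 TPM, below Clec4f in 20 of 20 livers. Csf1r (33.9 TPM) and Cd68 (21.7 TPM), a lysosomal glycoprotein, followed, and Csf1r was above Cd68 in 14 of 20. The middle of the order was not separated: Adgre1 (15.7 TPM) exceeded Timd4 (12.3 TPM) in 11 of 20 livers, and Timd4 exceeded Cd163 (11.7 TPM) in 10 of 20. Marco (9.03 TPM), a scavenger receptor for bacteria and particles, and Spic (3.10 TPM), an Ets transcription factor induced by haem, were lowest. Counts divided by transcript length gave the same order for 10 of 10 genes.

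The libraries had been sequenced in 3 pools, of 8, 5 and 7 livers, and every group had livers in each pool. C3 males had fewer livers in pool 3 and more in pool 2 than each other group. Group means, sums and overlaps of CPM are not adjusted for pool. The library totals did not overlap between pools. They were 33107889 to 36673533 reads in pool 1, 27370921 to 31280663 in pool 2 and 38928480 to 46835745 in pool 3. Pool and depth therefore cannot be told apart. Pool was a term in the main fit of each comparison. In that fit 58.3% of the 13704 genes differed between pool 3 and pool 1 at an adjusted p under 0.05, and 23.5% between pool 2 and pool 1 (edgeR quasi-likelihood test, a comparison added after the data were seen). Of the 10 members, 6 differed between pools 3 and 1, with 3 higher and 3 lower. Adgre1 was higher in pool 3 by 1.01 ± 0.13 on the log2 scale (SE, adjusted p = 1.21e-06), Csf1r by 0.57 and Clec4f by 0.49. Cd68 was lower there, at a log2 difference of -0.87 ± 0.09 (SE, adjusted p = 5.85e-08), as were Timd4 (-0.61) and Cd163 (-0.29). The pool thus separated members of the same cell type in opposite directions. Vsig4 (0.10), Cd5l (0.10), Marco (0.23) and Spic (-0.37) did not pass. Between pools 2 and 1 the same test called 0 of 10, with 2 of 10 at an unadjusted p under 0.05. The counts of members called below are therefore also given for the 13 livers outside pool 3. The shares of all genes called are those of the fit to 20 livers. At an adjusted p under 0.05 no share is given for the 13 livers. At an adjusted p under 0.001 with a log2 fold change beyond 0.5, fewer of all genes were called there. The counts were 380 against 869 for sex in B6 and 428 against 945 in C3, and 626 against 1288 and 786 against 1321 for strain in females and males.

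**Figure D1:**
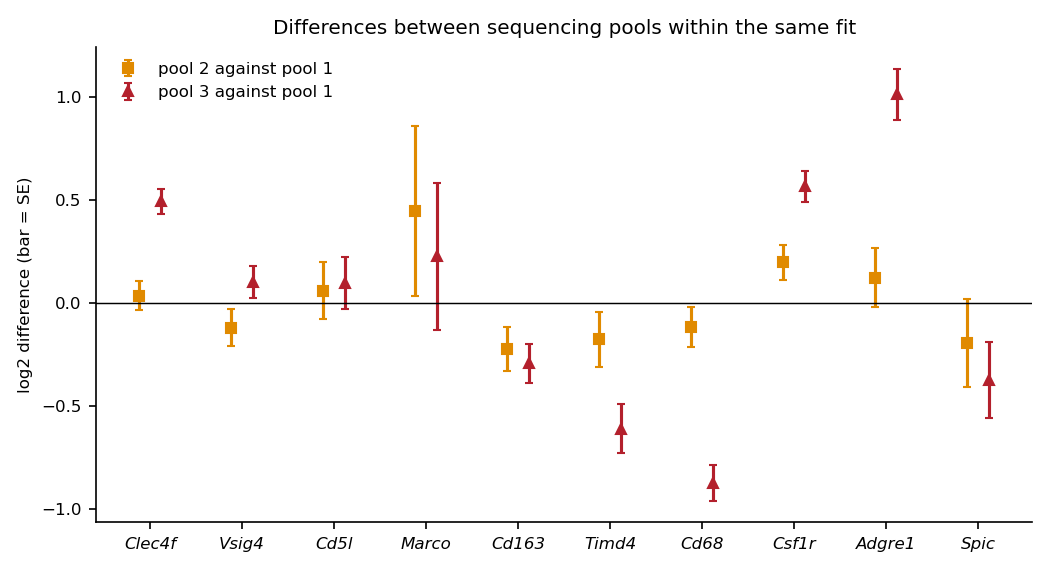
Log2 difference of each marker gene between sequencing pools in the fit with group, points with SE bars, squares for pool 2 and triangles for pool 3, each against pool 1. In pool 3, Adgre1 (1.01), Csf1r (0.57) and Clec4f (0.49) lie above 0, and Cd68 (-0.87), Timd4 (-0.61) and Cd163 (-0.29) lie below it.

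**Figure D2:**
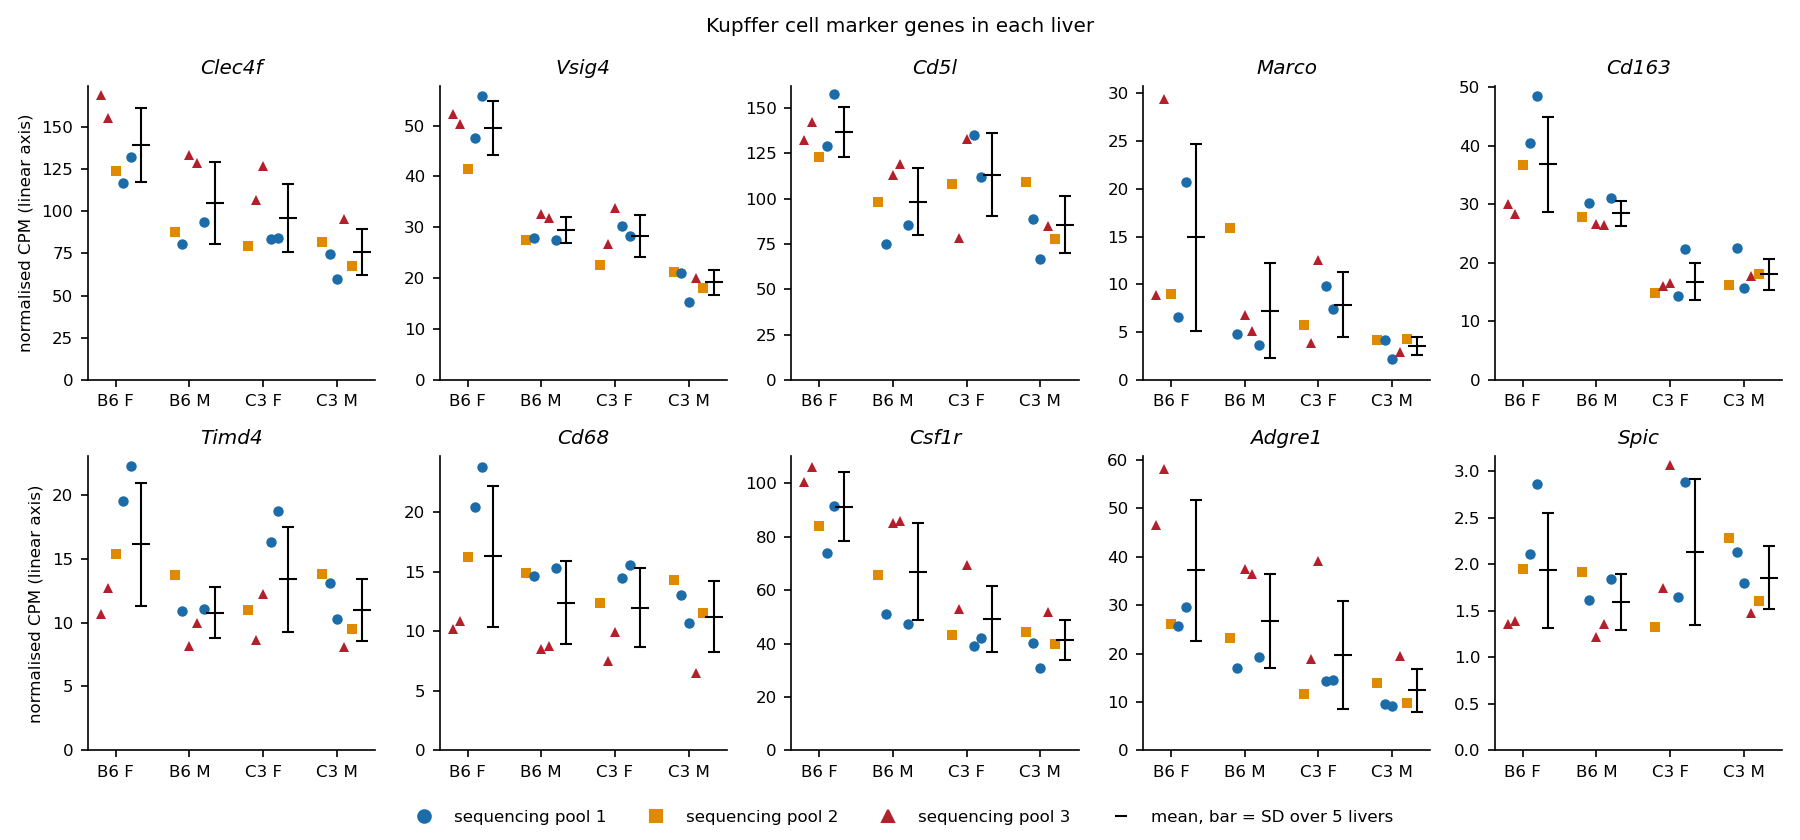
Normalised CPM of each marker gene in each of the 20 livers on a linear axis from 0, by group (F, female, M, male), with colour and shape giving the sequencing pool and the black bar the mean and SD of 5 livers. For Vsig4, B6 females are highest (mean 49.5 CPM) and C3 males lowest (19.2 CPM). B6 males (29.5 CPM) and C3 females (28.3 CPM) lie between them and overlap each other. The pool 3 triangles stand high for Adgre1 and low for Cd68.

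The first question was whether the markers differ between the sexes in B6. All 10 had fitted log2 fold changes above 0 in females against males, with a median of 0.48 against 0.0018 over all genes tested. Values for single genes are CPM after TMM scaling. At an adjusted p under 0.05 (edgeR quasi-likelihood test, Benjamini-Hochberg over 13704 genes), 8 of 10 were higher in females and 0 lower, where 16.2% of all genes were called higher in females and 18.4% higher in males. At the study's stricter limits, an adjusted p under 0.001 with a log2 fold change beyond 0.5, 1 of 10 was called, against 3.23% of all genes.

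Vsig4 was that gene. It read 52.3, 50.4, 41.5, 47.6 and 55.8 CPM in the 5 B6 females and 27.4, 28.0, 32.6, 31.8 and 27.5 CPM in the 5 B6 males. The groups did not overlap, and every female was above every male. The means were 49.5 ± 5.37 and 29.5 ± 2.55 CPM (SD, n = 5), a 1.68-fold difference (log2 0.75 ± 0.09 SE, adjusted p = 8.83e-06 by edgeR). Vsig4 (gene ID 278180) is the only member on the X chromosome, at chrX:93442542-93488777 of mm9 on the minus strand. Cd5l was the other member without overlap, at 132, 142, 123, 129 and 158 CPM in females and 98.3, 75.0, 113, 119 and 85.5 CPM in males. That made 2 of 10 members, and 5.79% of all genes lay wholly higher in females. The difference in Cd5l was 1.40-fold (log2 0.49 ± 0.15 SE, adjusted p = 0.019 by edgeR).

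Among the other endocytic receptors, Clec4f (gene ID 51811, chr6:83594536-83606110 of mm9, minus strand) stood at 139 ± 21.9 CPM in B6 females and 105 ± 24.4 CPM in B6 males (SD, n = 5). The groups overlapped, since the 2 males of pool 3 were at 133 and 128 CPM while females 4 and 3, from other pools, were at 117 and 124 CPM. Its fitted difference with pool in the model was log2 0.43 ± 0.08 (SE, adjusted p = 0.000287 by edgeR), and the log2 ratios within pools 1, 2 and 3 were 0.52, 0.50 and 0.31. Timd4, the phosphatidylserine receptor of long-lived Kupffer cells, differed by 0.54 (adjusted p = 0.00775), and Cd163, which takes up haptoglobin-haemoglobin complexes, by 0.36 (adjusted p = 0.021). Marco had the largest fitted change, 1.13, yet did not pass (adjusted p = 0.0518). Its females read 8.85, 29.4, 9.03, 6.61 and 20.7 CPM and its males 15.9, 4.80, 6.76, 5.16 and 3.65 CPM, so females 2 and 5 and male 1 stood well above the others of their groups. Within pool 2 the log2 ratio of Marco was -0.81, against 1.69 and 1.68 in pools 1 and 3.

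Csf1r, the receptor for Csf1 and Il34, read 100.5, 106, 83.9, 74.0 and 91.4 CPM in B6 females and 65.7, 50.9, 85.0, 86.0 and 47.4 CPM in B6 males. Only females 3 and 4 fell within the range of the males. The difference was log2 0.48 ± 0.09 (SE, adjusted p = 0.000723 by edgeR), past the stricter limit on p and just short of that on fold. Adgre1, the adhesion receptor widely used as a macrophage antigen, differed by 0.48 (adjusted p = 0.0209) and Cd68 by 0.37 (adjusted p = 0.00918). Spic differed by 0.26 ± 0.23 (SE) and did not pass (adjusted p = 0.406). For 9 of the 10 members the ratio of means had the same sign in all 3 pools. Without pool 3, 8 of 10 members were again higher at an adjusted p under 0.05 and 0 of 10 passed the stricter limits, with Vsig4 at 0.81 (adjusted p = 0.00116, range over the alternatives 9.99e-13 to 0.0462). Without the pool term the count of 8 was 2, Cd5l and Vsig4. It fell to 5 without B6 female 5 or without B6 male 2, in both cases Cd68, Clec4f, Csf1r, Timd4 and Vsig4, and the strict count rose to 2, with Csf1r, without B6 female 1.

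In C3 the difference between the sexes had the same direction for 9 of the 10 members. The median log2 fold change was 0.31, against 0.48 in B6 and 0.0146 over all genes tested. At an adjusted p under 0.05, 5 of 10 were higher in females and 0 lower, where 20.1% of all genes were called higher in females and 19.9% higher in males. These were Vsig4, Clec4f, Adgre1, Cd5l and Marco. The stricter limits left 1 of 10, against 4.11% of all genes.

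Vsig4 was again the member past the stricter limits. It read 22.5, 26.6, 33.8, 30.2 and 28.2 CPM in C3 females and 21.2, 21.1, 15.4, 20.1 and 18.1 CPM in C3 males. Every female was above every male, the lowest female by a small margin, and 7.38% of all genes lay wholly higher in females. The difference was log2 0.51 ± 0.10 (SE, adjusted p = 0.000662 by edgeR), which is close to the fold limit. This call was lost without C3 female 3, 4 or 5 and without C3 male 3, 4 or 5, where the log2 fold change was 0.42 to 0.51 and the adjusted p 0.00144 to 0.00378, and without pool 3 it was 0.47 (adjusted p = 0.0168). Over all alternatives its adjusted p ran from 1.23e-05 to 1, the latter from a test against a fold change of log2 0.5.

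Marco was 7.86 ± 3.40 CPM in C3 females and 3.55 ± 0.95 CPM in C3 males (SD, n = 5), a fitted difference of 1.23 ± 0.47 (SE, adjusted p = 0.0448 by edgeR). Clec4f differed by 0.24 (adjusted p = 0.0199), Adgre1 by 0.45 (adjusted p = 0.0333) and Cd5l by 0.40 (adjusted p = 0.0461). Of the members that did not pass, Timd4 was at 0.35, Spic at 0.27, Cd68 at 0.24 and Csf1r at 0.17. Cd163 was at -0.09 ± 0.12 (SE, adjusted p = 0.565), with 16.8 ± 3.20 CPM in females and 18.1 ± 2.68 CPM in males. Its sign turned to 0.01 with limma on TPM values. The sign was the same in all 3 pools for 6 of 10 members, with 5 higher in females and 1, Cd163, lower.

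The count of 5 changed with single livers and with the fit. It was 1 (Vsig4) without C3 female 3, C3 male 3 or C3 male 4, 2 (Clec4f and Vsig4) without C3 female 4, C3 female 5 or C3 male 5, and 3 without C3 male 2. It was 2 (Cd5l and Vsig4) without pool 3, 1 (Vsig4) without the pool term and 2 (Marco and Vsig4) with only the 2 C3 groups in the fit. It was larger, 8, with limma on TPM, where Cd68, Csf1r and Timd4 also passed. With limma the median log2 fold change over all genes was 0.0866, against 0.0146 in the main fit. Of all genes called there at the stricter limits, 73% were higher in females, against 59.6%. No share of all genes at an adjusted p under 0.05 is given for limma.

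**Figure D3:**
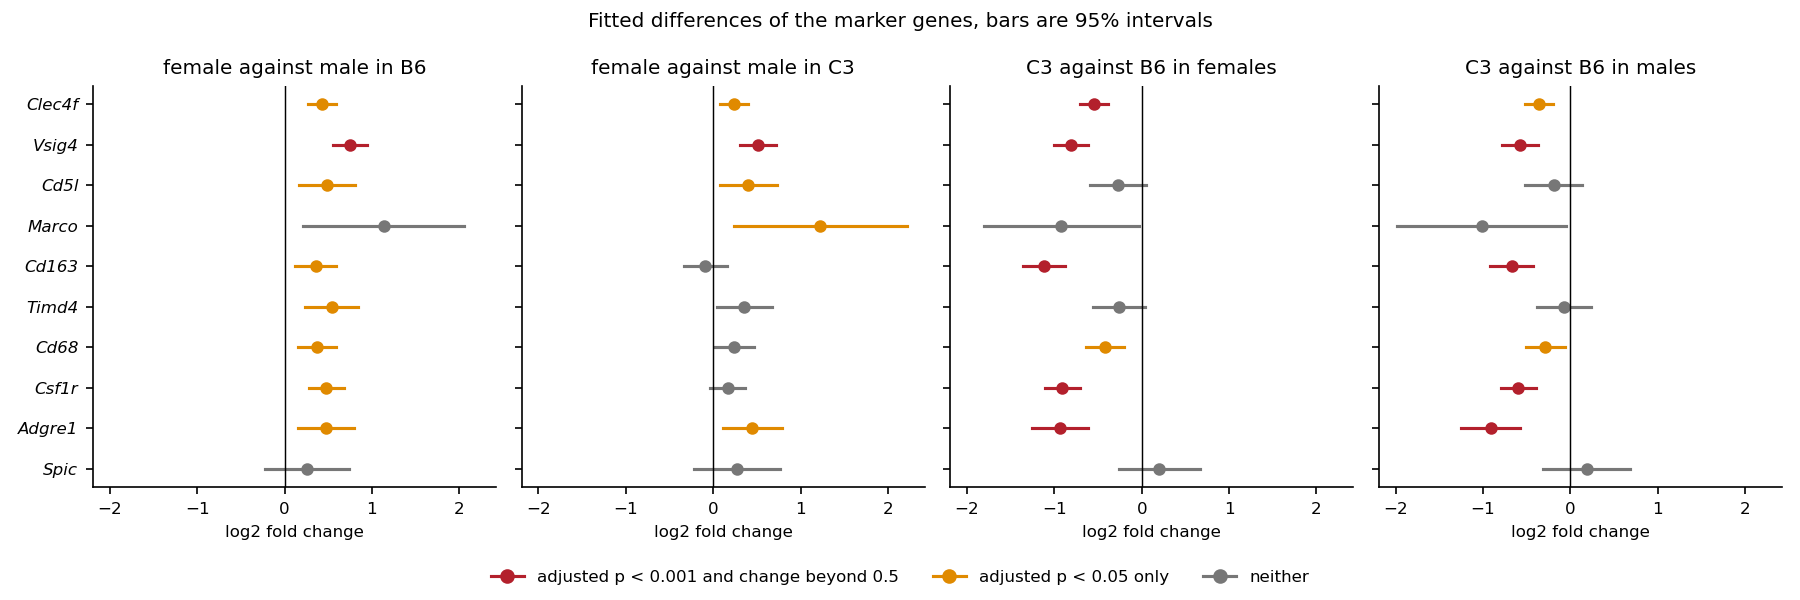
Fitted log2 fold change of each marker gene with its 95% interval in the 4 comparisons, coloured by the call. Female against male values lie above 0 except Cd163 in C3 (-0.09), and C3 against B6 values lie below 0 except Spic (0.20 in females and 0.19 in males).

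The strains were compared next, first in females. The markers were lower in C3, with 9 of 10 log2 fold changes below 0 and a median of -0.68 against 0.0195 over all genes. At an adjusted p under 0.05, 6 of 10 were lower in C3 and 0 higher, where 15.3% of all genes were called lower and 17.7% higher. At the stricter limits 5 of 10 were lower, Cd163, Csf1r, Adgre1, Vsig4 and Clec4f, against 4.77% of all genes. These comparisons use the same B6 females as the comparison of the sexes in B6.

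Cd163 (gene ID 93671, chr6:124254669-124280545 of mm9, plus strand) read 30.1, 28.4, 36.7, 40.6 and 48.5 CPM in B6 females and 14.8, 16.0, 16.5, 14.4 and 22.3 CPM in C3 females. All C3 females were below all B6 females. Cd163 was 2.17-fold lower in C3 (log2 -1.12 ± 0.12 SE, adjusted p = 4.46e-07 by edgeR). Csf1r, at 43.1, 52.8, 69.3, 39.1 and 42.1 CPM in C3 females against 74.0 to 106 CPM in B6 females, did not overlap either and was 1.88-fold lower (log2 -0.91 ± 0.09 SE, adjusted p = 4.46e-07). Vsig4 was the third member without overlap, 28.3 ± 4.19 CPM against 49.5 ± 5.37 CPM (SD, n = 5), with a log2 fold change of -0.81 (adjusted p = 2.06e-06). The share of all genes wholly lower in C3 females was 6.47%.

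Adgre1 (gene ID 13733, chr17:57498109-57622952 of mm9, plus strand) overlapped between the strains in 1 C3 female of pool 3. It read 46.6, 58.1, 26.0, 25.6 and 29.7 CPM in B6 females and 11.7, 19.0, 39.1, 14.2 and 14.5 CPM in C3 females. With pool in the fit it was 1.92-fold lower in C3 (log2 -0.94 ± 0.15 SE, adjusted p = 0.000102 by edgeR), and the log2 ratios within the 3 pools were -0.95, -1.15 and -0.85. Clec4f was lower by a smaller amount, log2 -0.55 ± 0.08 (SE, adjusted p = 1.6e-05). Cd68 passed the 0.05 limit only, at -0.42 (adjusted p = 0.0041).

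The 4 members that did not pass were Cd5l at -0.27 ± 0.15 (SE), Timd4 at -0.26 ± 0.14, Marco at -0.92 ± 0.42 and Spic at 0.20 ± 0.22. The 95% interval was -0.59 to 0.05 for Cd5l and -0.56 to 0.04 for Timd4. That of Marco ran from -1.81 to -0.03 and its adjusted p was 0.107. Spic, at 1.93 ± 0.62 CPM in B6 females and 2.14 ± 0.79 CPM in C3 females (SD, n = 5), changed sign to -0.26 without pool 3. The count of 6 was the same, with the same genes, without pool 3 and with any 1 liver left out, and the strict count was 4 without pool 3. Without the pool term the count was 4, with Adgre1 and Cd68 not passing.

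In males the same 6 members were lower in C3 at an adjusted p under 0.05, and 0 were higher, where 17.5% of all genes were called lower and 17.0% higher. The median log2 fold change was -0.47, against 0.0146 over all genes. At the stricter limits 4 of 10 were lower, Adgre1, Cd163, Csf1r and Vsig4, against 5.55% of all genes.

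Cd163 read 27.8, 30.3, 26.7, 26.5 and 31.1 CPM in B6 males and 16.2, 22.5, 15.8, 17.7 and 18.1 CPM in C3 males. There was no overlap, and the difference was log2 -0.67 ± 0.12 (SE, adjusted p = 0.000206 by edgeR), a 1.59-fold lower level. Vsig4 also showed no overlap, at 15.4 to 21.2 CPM in C3 males against 27.4 to 32.6 CPM in B6 males (log2 -0.57, adjusted p = 0.000162). That made 2 of 10 members, and 8.40% of all genes lay wholly lower in C3 males. Adgre1 was at 14.0, 9.50, 9.08, 19.6 and 9.88 CPM in C3 males and 23.1, 17.0, 37.5, 36.5 and 19.3 CPM in B6 males, and only the pool 3 male of C3 reached the B6 range. Its difference was log2 -0.91 ± 0.16 (SE, adjusted p = 0.000197), close to that in females.

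Csf1r differed by -0.60 (adjusted p = 8.85e-05 by edgeR), Clec4f by -0.36 (adjusted p = 0.00139) and Cd68 by -0.29 (adjusted p = 0.0445). Cd5l (-0.19), Timd4 (-0.07), Spic (0.19) and Marco (-1.01, adjusted p = 0.0969) did not pass. Timd4 was at 10.8 ± 2.02 CPM in B6 males and 10.97 ± 2.42 CPM in C3 males (SD, n = 5), and its sign changed to 0.0070 without pool 3. The strict count fell from 4 to 1 (Csf1r) without B6 male 1, to 2 (Cd163 and Csf1r) without C3 male 4 and to 1 (Adgre1) without pool 3. Cd68 did not pass 0.05 without any 1 of B6 males 1, 3, 4 and 5 and C3 males 3, 4 and 5, nor without pool 3, which left 5 of 10 in each case.

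The test of the difference between differences, sex by strain, called 0 of 10 members at either limit, where 0.401% of all genes passed the stricter limits and 2.96% an adjusted p under 0.05 (edgeR). DESeq2 and limma also called 0 of 10 at an adjusted p under 0.05, as did edgeR without pool 3. The interaction was below 0 for 8 of 10, and 2 of 10 had an unadjusted p under 0.05. These were Cd163, at -0.45 ± 0.16 (SE, adjusted p = 0.166), and Csf1r, at -0.31 ± 0.13 (SE, adjusted p = 0.248). So the smaller differences between the sexes in C3 than in B6 were not shown to differ for any member. For Marco the 95% interval of the interaction ran from -1.20 to 1.40, which covers a wide range of differences.

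Other genes known from Kupffer cells were read from a list of 16, all of which passed the filter. In B6, 12 of 16 were higher in females at an adjusted p under 0.05 and 1 lower, and in C3 7 and 1. Between the strains, 12 of 16 were lower in C3 females and 1 higher, and 7 and 1 in males. The list median was 0.43 in B6 and 0.33 in C3 for sex, and -0.50 in females and -0.32 in males for strain. Without pool 3 the same counts were 10 and 1, 4 and 1, 8 and 1, and 6 and 1.

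Folr2, a folate receptor carried by tissue macrophages, had the largest strain difference of the list. It stood at 15.7 ± 1.53 CPM in B6 females against 1.20 ± 0.27 in C3 females, and 10.4 ± 0.65 CPM in B6 males against 0.32 ± 0.09 in C3 males (SD, n = 5). It was 13.0-fold lower in C3 females (log2 -3.70, adjusted p = 1.18e-13 by edgeR) and 33.1-fold lower in C3 males (log2 -5.05, adjusted p = 4.07e-14), far beyond any of the 10 members. The C3 males rest on raw counts of 8 to 11. Folr2 was also higher in females, at 0.60 in B6 (adjusted p = 0.000382) and 1.94 in C3 (adjusted p = 5.61e-07), and its sex-by-strain difference passed, at 1.34 ± 0.23 (SE, adjusted p = 0.00198 by edgeR), the 1 gene of the 16 that did. Cxcl13, the B cell chemokine, followed in both sexes, with -2.89 in females and -2.96 in males. Its raw counts were 11 to 20 in C3 females and 4 to 14 in C3 males. Adgre4, a relative of Adgre1, was at -0.88 and -0.79.

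Slc40a1, the iron exporter ferroportin, went the other way between strains, with 0.60 in females (adjusted p = 2.57e-05 by edgeR) and 0.73 in males (adjusted p = 3.09e-06) in C3 against B6. It was also higher in females in B6 (0.63). C6, a complement component that hepatocytes also secrete, was the gene higher in males, at -3.15 in B6 and -3.89 in C3, with 322 CPM in B6 males and 35.9 CPM in B6 females. In the haem and iron recycling list of 10 genes, which also holds Slc40a1, calls went in both directions. There were 3 higher and 3 lower in B6 females against males, and 1 and 3 in C3. For C3 against B6 there were 2 and 4 in females and 3 and 4 in males. Which cells these transcripts came from was not tested. In C3 males Hpx averaged 3027 CPM and Hp 1761 CPM, where the 10 members together were at 223 to 322 CPM. Blvrb, biliverdin reductase B, was at -0.51 in B6 females against males and -0.79 in C3 against B6 males, and Slc11a1, a phagosomal metal transporter, at -0.77 in C3 against B6 females. Hmox1, the haem oxygenase that degrades haem in macrophages, did not pass in any of the 4 comparisons, with values from -0.23 to 0.16.

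Of the 22 niche signals and transcription factors, 10 were higher in females in B6 and 0 lower, and 11 and 1 in C3. Csf1, the main growth factor of macrophages, was 13.7 ± 3.74 CPM in B6 females and 9.35 ± 1.28 CPM in B6 males (SD, n = 5). Its log2 difference was 0.53 ± 0.14 (SE, adjusted p = 0.0071 by edgeR) in B6 and the same, 0.53, in C3, and it did not pass between the strains (0.13 in each sex). Il34, the second ligand of Csf1r, was near 1 CPM and did not pass in any comparison, with values of 0.41 and 0.36 for sex and -0.26 and -0.21 for strain. Maf was higher in B6 females (0.55) and Dll1, a Notch ligand, in C3 females (1.43).

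Between the strains 11 of 22 were lower in C3 females and 0 higher, and 7 and 1 in males. Spi1, the Ets factor that macrophages need, was lower in C3 females at -0.73 ± 0.14 (SE, adjusted p = 0.00062 by edgeR), and in males at -0.69 (adjusted p = 0.00176). It was higher in females at 0.48 in B6 and 0.44 in C3. Nr1h3, the oxysterol receptor that hepatocytes share with Kupffer cells, was at -0.20 in C3 against B6 females (adjusted p = 0.0225) and -0.21 in C3 females against males (adjusted p = 0.0144), and at -0.10 and -0.09 in the others. Rbpj, the DNA-binding partner of Notch, was lower in C3 at -1.05 in females and -1.26 in males, and Dll1 at -0.80 in males. Without pool 3 the counts for the list were 8 higher and 0 lower for sex in B6, 7 and 0 in C3, and 0 higher and 6 lower in females and 0 and 5 in males for strain.

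Genes of macrophages in general took the same directions as the markers. Of 26, all tested, 20 were higher in B6 females and 0 lower, and 13 and 0 in C3. In C3 against B6, 19 were lower in females and 0 higher, and 17 and 2 in males. The list medians were 0.44, 0.34, -0.63 and -0.53, near those of the 10 members. Mertk, which clears dying cells, was higher in B6 females (0.67), and Cd14 (1.42) and Ptprc (0.74) were higher in C3 females. Fcgr1 (-1.11), Csf2ra (-1.03) and Lyz2 (-0.85) were lower in C3 than in B6 females past the stricter limits, and Lyz2 (-0.90), Ptprc (-0.74) and C1qb (-0.72) in males. Without pool 3 the counts were 21 and 0, 8 and 0, 0 higher and 19 lower, and 2 and 12.

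Markers of the neighbouring sinusoidal cells were also higher in females. Of 12 endothelial markers, 11 were higher in B6 females and 10 in C3 females, with 0 lower, and medians of 0.34 and 0.23. Their summed level was 702 to 817 CPM in B6 females, 570 to 629 in B6 males, 646 to 736 in C3 females and 577 to 647 in C3 males. Of 8 stellate cell markers, 6 were higher in B6 females and 5 in C3 females, with 0 lower, and medians of 0.38 and 0.27. Their summed level was 592 to 715 CPM in B6 females and 476 to 539 in B6 males, and 554 to 678 and 483 to 598 CPM in C3. None of these markers was at 0, and their part in the sex difference of the Kupffer markers was not tested. Without pool 3 the endothelial counts were 11 and 5 and the stellate counts 5 and 4.

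Between strains the same lists were mixed. Among the endothelial markers 7 were lower and 1 higher in C3 females and 5 and 1 in males, with medians of -0.22 and -0.04, and the most negative of them, Lyve1, was at -0.98 in females. Among the stellate markers 4 were lower and 2 higher in each sex. Rgs5 was higher in C3 at 1.07 in females and 1.44 in males, and Ngfr at 0.82 in females. The members' medians of -0.68 and -0.47 lay below both lists, a difference between lists that was not tested.

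Markers of other leukocytes were also higher in C3 females. In C3 females against males, 4 of 6 monocyte markers tested, 2 of 4 neutrophil markers, 6 of 7 dendritic cell markers and 6 of 8 lymphocyte markers were higher, with 0 lower, with medians of 1.17, 1.16, 1.12 and 1.43. S100a9, a neutrophil granule protein, was at 1.89. In B6 the counts were 2, 1, 0 and 1, with medians of 0.38, 0.67, 0.22 and 0.57, and Ly6g, the neutrophil surface marker, was at 1.01. The sex-by-strain test called 1 of the 4 neutrophil markers and 0 of the other 3 lists at an adjusted p under 0.05. These genes are rare in the tissue. In C3 males the mean of Klrb1c (0.0131 CPM) was under the limit of detection of 0.0641 to 0.11 CPM. Those of Ly6c2 (0.0659), Cd3e (0.0730), Flt3 (0.0813) and Cd79a (0.104 CPM) lay within that range. The sizes of their sex differences in C3, and of the list medians they enter, are therefore uncertain. The summed lymphocyte level was 4.84 to 8.04 CPM in B6 females, 2.45 to 6.98 in B6 males, 3.21 to 4.52 in C3 females and 1.31 to 1.64 CPM in C3 males.

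The monocyte sums were 9.91 to 13.9, 6.07 to 12.1, 9.39 to 14.4 and 4.34 to 7.10 CPM in the same order of groups, the dendritic sums 9.51 to 13.0, 7.45 to 12.6, 8.01 to 12.1 and 5.34 to 8.46 CPM, and the neutrophil sums 4.16 to 5.64, 2.73 to 3.73, 3.64 to 8.71 and 2.83 to 3.23 CPM. In each list the C3 males had the lowest median. In C3 against B6 males, all 8 lymphocyte markers tested, 3 of 6 monocyte and 3 of 7 dendritic markers were lower, with Ccr2, the monocyte chemokine receptor, at -1.94, Flt3 at -2.35, Itgax at -1.93 and Klrb1c, a killer cell receptor, at -4.28, while 1 monocyte marker was higher. In females the counts lower in C3 were 3, 1 and 1, with 0, 1 and 0 higher, and of the neutrophil markers 1 was higher. In C3 males Klrb1c had a mean of 0.0131 CPM, under the limit of detection of 0.0641 to 0.11. Flt3 had a mean of 0.0813 CPM there, within the range of that limit. Ly6c2, Cd3e and Cd79a were also within it in C3 males. The sizes of all these changes in males are therefore uncertain. The part of these leukocyte markers in the differences of the Kupffer markers was not tested. The 6 globin genes were listed at 0 in every liver, and the 1 tested red-cell gene passed only in C3 against B6 males, where it was lower.

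Hepatocyte markers were mixed for sex. Of 8, 3 were lower and 1 higher in B6 females and 4 and 1 in C3 females, with medians of -0.22 and -0.24. The 1 higher was Alb, albumin, named after its values were seen, at 0.42 in B6 and 0.46 in C3. Between strains, 3 were higher in C3 females and 2 in C3 males, and 0 lower, with Apoa1, the main protein of high-density lipoprotein, at 0.84 and 0.71. Their summed level was 93110 to 177700 CPM over the 20 livers, against 223 to 595 CPM for the 10 members. The sum, of which Alb was the greater part, ran higher in females, as the Kupffer markers did, against the sign of the list medians. It was 108400 to 138600 CPM in B6 females and 93110 to 115000 in B6 males, and 150900 to 177700 and 126600 to 150700 CPM in C3. Its part in the strain difference was not tested.

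**Figure D4:**
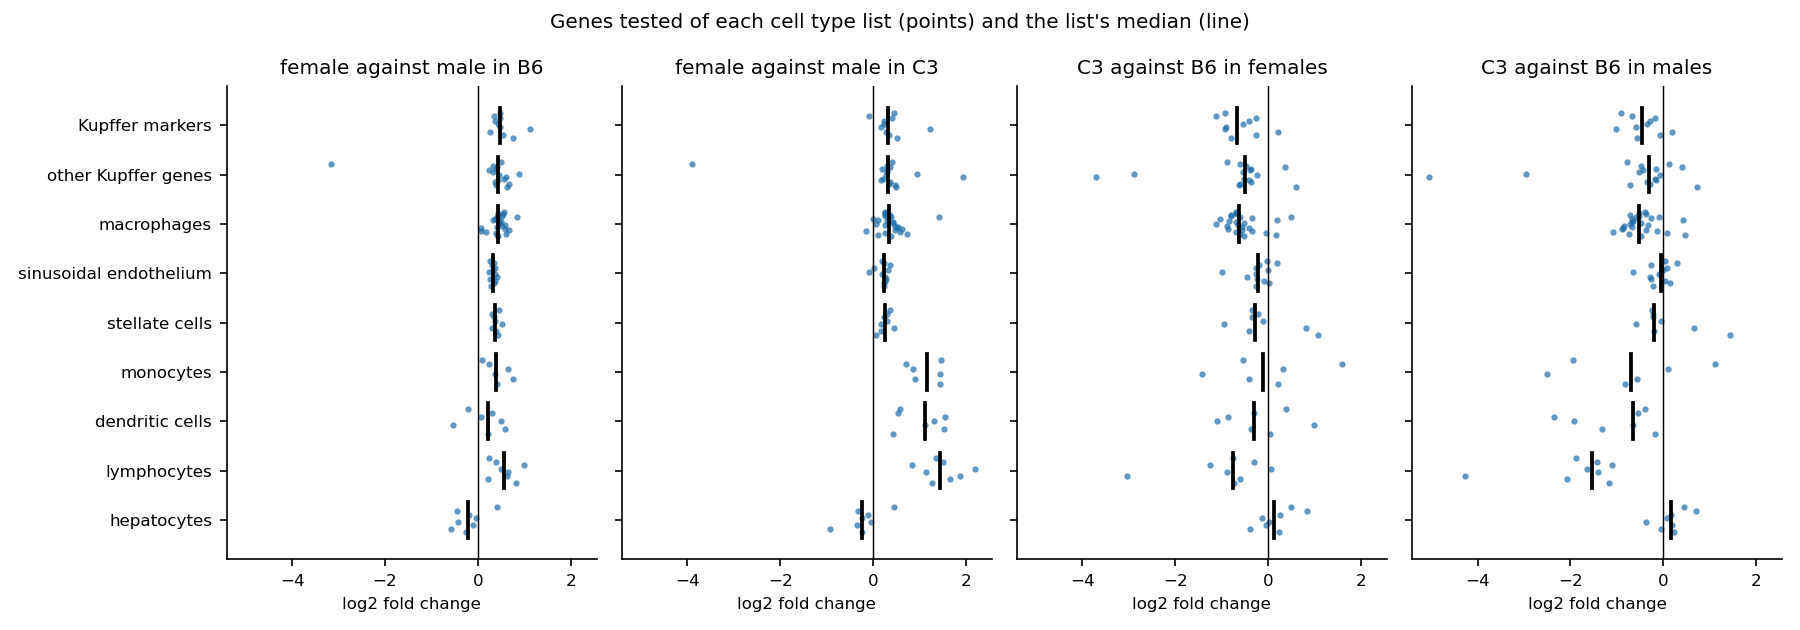
Log2 fold change of every tested gene (points) of each cell type list and the list's median (black line) in the 4 comparisons. The medians for female against male in B6 are 0.48 for the Kupffer markers, 0.44 for macrophages, 0.34 for sinusoidal endothelium, 0.38 for stellate cells and -0.22 for hepatocytes, and those of C3 against B6 in females are -0.68, -0.63, -0.22, -0.28 and 0.12.

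The members also varied together among livers of the same group. After group and pool means had been removed from the log2 CPM, the median Pearson r over the 45 pairs of members was 0.67 (median Spearman 0.66, 20 livers), with 35 of 45 pairs over 0.5, while the median over all pairs of genes tested was 0.0012 and 4.67% of them were over 0.5. These are descriptions: each pair shares the same 20 libraries and their scaling. The closest pair was Vsig4 and Cd68 (r = 0.879, rho = 0.845). Without the 2 livers farthest from the median, a C3 female and a B6 female, the median was 0.572 and 28 of 45 pairs were over 0.5. With the pools left in, the median was 0.286 and 15 of 45 pairs were negative. The part of the opposite pool differences of Adgre1 and Cd68 in this was not tested.

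Cd163 stood apart from the rest. Its r was 0.0812 with Marco, 0.0834 with Cd5l and 0.119 with Adgre1, and all 3 turned negative without the 2 farthest livers (-0.106, -0.0659 and -0.0749). It was closest to Spic, at 0.628. Cd163 was also the member with the most negative strain difference in females and the only one with a negative sex difference in C3. The members differed as well in their spread within a group. The coefficient of variation of Vsig4 was 8.67% to 14.8% over the 4 groups, that of Cd163 7.41% to 22.1%, and that of Marco 26.7% to 68.2%.

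**Figure D5:**
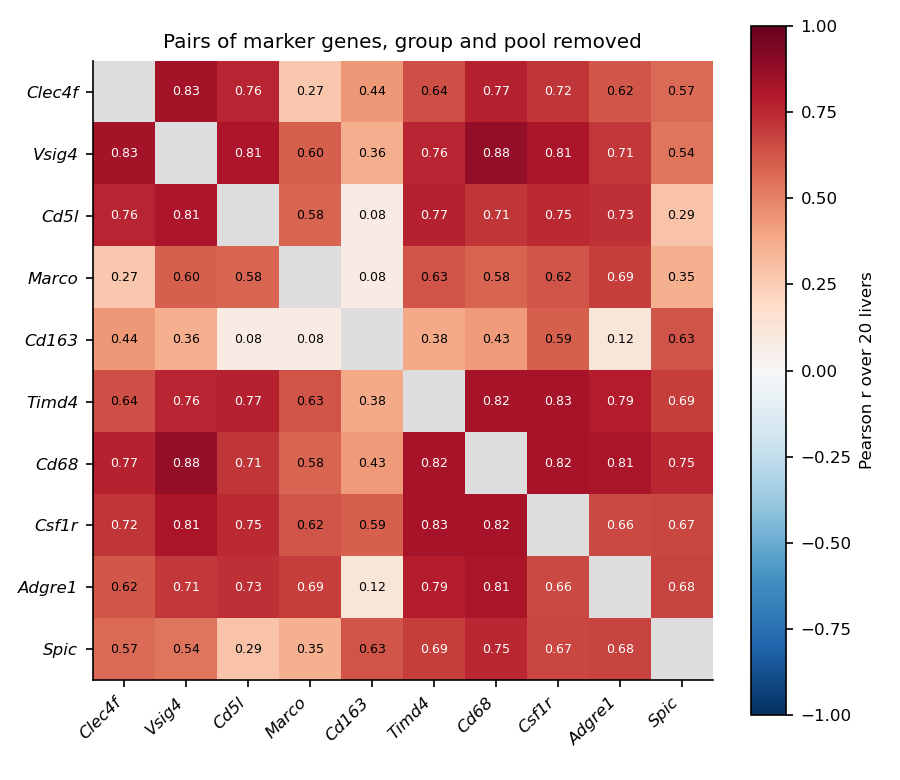
Pearson r between each pair of marker genes over 20 livers after removal of group and pool means from log2 CPM. Most pairs are dark red, with 35 of 45 over 0.5, and the Cd163 row is palest, from 0.08 with Marco to 0.63 with Spic.

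Of the 13694 other genes tested, Lilrb4a followed the mean profile of the members most closely (r = 0.919, rho = 0.914 over 20 livers, 0.878 without 2). Aif1 (0.886), Dock2 (0.877), Axl (0.866), Lilra5 (0.859), Laptm5 (0.849), Cfp (0.849), Cd86 (0.848), Tmsb4x (0.846) and Ncf1 (0.838) came next. Of these 10, Aif1, Axl, Laptm5 and Cd86 were on the macrophage list and Lilra5 on the list of other Kupffer genes. For single members, Cd5l was closest to Slc11a1 (0.927) and Sdc3 (0.92), Vsig4 to Dock2 (0.912) and Axl (0.904), and Csf1r to Dock2 (0.894) and Cd86 (0.868). Adgre1 was closest to Siglece (0.895) and Clec4a3 (0.891), Clec4f to Aif1 (0.865) and Rgs1 (0.859), Cd68 to Vsig4 (0.879) and Lilrb4a (0.873), and Timd4 to Lilrb4a (0.833) and Csf1r (0.826). Marco was closest to Pirb (0.834) and Fgr (0.819), Spic to Igsf6 (0.862) and Sema6d (0.819), and Cd163 to Rab8b (0.868) and Ldhal6b (0.848), none of which was on a cell type list used here.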

How the data were processed

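Total RNA of 20 livers had been depleted of ribosomal RNA and sequenced as stranded paired-end libraries in 3 pools. Per the labels and the study's methods, the authors trimmed reads with cutadapt 1.9.1 and aligned them to mm9 with STAR 2.5.1b. They counted them on RefSeq genes by strand with featureCounts (Subread 1.5.0-p1), leaving out multimapping reads and reads that overlapped several genes. Deposited were a table of raw counts and a table of TPM, whose gene length is not given in the sources used here. The headers of the symbol and ID columns are exchanged. mm9 derives from C57BL/6J, so C3 reads met a more distant reference, and the effect of this on the counts was not tested.

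Here counts kept by filterByExpr (13704 of 25444 loci) were scaled by TMM and fitted with edgeR 4.0.16 (quasi-likelihood, group and pool, 20 libraries), with Benjamini-Hochberg adjustment over all genes tested. Alternatives used DESeq2 1.42.0, limma 3.58.1 on log2(TPM + 1), other scalings, no filter, no pool term, a replicate block, fewer libraries and each liver left out. Residuals for correlations were taken from log2 CPM (prior count 2). The fits were tested on simulated data. Replicates differed by more than sampling noise (chi-square per degree of freedom 19.9 to 192 over 40 pairs). These pairs lay within groups but partly across pools, and pool was not removed, so the values include pool differences. The members, the gene lists and the tests were chosen with earlier results of these data known. Companion genes named are the up to 4 per list and comparison with the largest change among those past the stricter limits, plus Csf1, Il34, Nr1h3, Spi1 and Hmox1, the 10 genes most like the members' mean profile and the 2 most like each member; 1 gene that this rule selects is not reported here.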

Additional observations from a re-analysis of the deposited data

Results flagged for a closer look

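Among the 40 sets of 5 livers given by 10 members and 4 groups, 3 held a liver whose gap to its neighbour, over the range of the set, exceeded Dixon's limit of 0.71. Chance alone gives about 1 in 20. Marco was 15.9 CPM in B6 male 1 (15.87 before rounding), with the nearest liver at 6.76 CPM and a ratio of 0.746. Adgre1 was 39.1 CPM in C3 female 3, a library of pool 3, with the nearest at 19.0 CPM and a ratio of 0.736. Cd163 was 22.3 CPM in C3 female 5, with the nearest at 16.5 CPM and a ratio of 0.737. Without C3 female 3 the log2 fold change of Adgre1 in C3 against B6 females was -1.13 and in C3 females against males 0.28. Without B6 male 1 that of Marco in B6 females against males was 1.59.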

How the results depend on the processing

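At the stricter limits, the members called for sex in B6 numbered 1 and became 3 with limma on log2(TPM + 1), 2 with upper-quartile scaling, 8 at an adjusted p under 0.05 alone, 0 without the libraries of pool 3 (a setting added after the data were seen) and 1 to 2 with each liver left out. For sex in C3 the 1 call was 0 under DESeq2, DESeq2 size factors, no pool term, a fit of only the 2 groups, a test against a log2 fold change of 0.5 and without pool 3, 5 at an adjusted p under 0.05, and 0 to 1 with each liver left out. For strain the 5 in females became 2 with no pool term. The 4 in males became 1 with no pool term, against 0.5 and without pool 3, and 1 to 4 with each liver left out. At an adjusted p under 0.05 alone, the members called for sex were 8 to 9 in B6 and 4 to 8 in C3 over DESeq2, limma, other scalings and no filter, 7 of them in C3 with upper-quartile scaling, and 2 and 1 with no pool term. For strain, 4 were called in each sex with no pool term, and in males 5 with no filter and 7 with only the 2 groups. The cause was not tested. Leaving out pool 3 also leaves fewer libraries, 13 of 20, and the part of that number was not tested.

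Signs turned for values that had not passed. With limma Nr1h3 for sex in B6 was 0.0153, Cd163 for sex in C3 0.0148 and the Spic interaction -0.0462. With no pool term Timd4 for strain in males was 0.0242, the Adgre1 interaction 0.191 and the Spic interaction -0.0665. Without pool 3 Spic was -0.0585 for sex in C3, -0.2559 for strain in females and -0.4217 for the interaction, and Timd4 for strain in males 0.0070. With each liver left out, Spic for strain in females ran from -0.0557 to 0.3676, Timd4 for strain in males from -0.1637 to 0.0434, and the interaction of Cd5l from -0.1757 to 0.0195, of Marco from -0.5244 to 0.5888, of Adgre1 from -0.2001 to 0.0852 and of Spic from -0.2126 to 0.2177.

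Same-numbered mice share only a number: the pairing correlations with pool removed averaged 0.0996, -0.0132, 0.0638 and 0.0104 over the 4 comparisons. With a replicate block the members called were 1 and 0 for sex in B6 and C3 and 5 and 4 for strain in females and males, the Spic interaction was -0.0379. At an adjusted p under 0.05 the block gave 8 and 2 for sex, with Adgre1, Cd5l and Marco lost in C3, and 6 and 5 for strain, with Cd68 lost in males. All genes called with the block were 845, 933, 1222, 1263 and 40 in the 5 tests, against 869, 945, 1288, 1321 and 55.

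All genes called, 869 and 945 for sex in B6 and C3 and 1288 and 1321 for strain in females and males, were 421, 482, 815 and 881 with no pool term and 380, 428, 626 and 786 without pool 3. They were 4742, 5479, 4515 and 4733 at an adjusted p under 0.05, 546 in B6 in the test against 0.5 and 625 in C3 with only the 2 groups. The interaction called 55 genes, 181 with DESeq2, 20 with no pool term, 405 at an adjusted p under 0.05, 4 without pool 3, and 32, 34 and 33 without B6 male 1, C3 female 1 and C3 male 4. Upper-quartile scaling and limma moved the share of calls for sex that were higher in females from 50.9% to 64.3% and 68.8% in B6 and from 59.6% to 70.0% and 73.0% in C3, with medians of all genes of 0.0678 to 0.0866. Among the members, depth limits Spic most, with counts from 40. It limits some companion genes more, among them Folr2 (counts of 8 to 11), Cxcl13 (4 to 14), Flt3 and Klrb1c in C3 males.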
